A study of Zea mays subsp. mays with 2 samples.

Results

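The loci described here are stretches of the maize genome that gave polyadenylated RNA in shoots and that the authors' table lists at exactly 0 in roots. They were chosen by that root value alone, and they number 597 of the 37398 listed loci, or 1.60%. The table holds no locus that is at or under 1 FPKM in both organs (FPKM is a fragment number scaled by transcript length and by the size of the library). Every locus at 0 in roots is therefore above 1 FPKM in shoots, and the 597 are 1.72% of the 34615 loci above that level in shoots. Both facts follow from the choice and from the way the table was made.

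The material was B73, the inbred line from which the maize reference genome was built. Seedlings were grown in a growth chamber and harvested 14 days after germination, and shoots and roots were collected separately, with no treatment named in the labels. There was 1 strand-specific, single-end library of each organ, without replicates, so that each difference given here is one between these libraries and carries no test, error or p-value. Over the listed loci FPKM summed to 1251263 for shoots and 1184202 for roots, and the number of reads behind these values is unknown. How many plants were pooled, and whether shoot and root came from the same plants, is not given in the sources used here.

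Shoots of seedlings hold the green leaves that carry out photosynthesis, and roots take up water and minerals, so the organs use partly different sets of genes. Polyadenylated RNA includes messenger RNAs and also many long noncoding RNAs. In plants, as in animals, long noncoding RNAs are often short, low in abundance and present in few organs, and some lie within introns of longer genes or opposite to them. Assemblers such as Cufflinks give separate locus numbers to transcripts that share no exon sequence, so an unspliced piece of RNA inside an intron can be listed as a locus of its own beside the gene that surrounds it. The table gives the outer ends and the strand of each locus, and neither exons nor names, so coding genes, noncoding RNAs and pieces of introns could not be told apart, nor could the organ labels be checked against marker genes.

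Most of the loci at 0 in roots were low in shoots. In whole organs, a transcript present in few cells and one that is scarce in many cells cannot be told apart. Their shoot levels ran from just above 1 FPKM to 201 FPKM, with a median of 2.66 FPKM and quartiles of 1.62 and 5.70 FPKM. The other 34018 loci above 1 FPKM in shoots had a median of 10.7 FPKM. Of the 597 loci, 220 (36.9%) stood at 2 FPKM or less, 80 at 10 FPKM or more, 10 at 50 FPKM or more and 3 at 100 FPKM or more. Together they held 0.316% of the FPKM sum of shoots, and the 10 highest held 24.3% of that share. With 1 FPKM added to both organs, 267 of the 597 were at least 4-fold higher in shoots, where 7.55% of all listed loci were so. That count restates how the loci were chosen, and nothing is read from it.

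The loci at 0 in roots were also short. Their genomic span, the distance between the outer ends of a locus with introns included, had a median of 539 bp and quartiles of 303 and 1199 bp, against a median of 2685 bp for the other loci above 1 FPKM in shoots. Spans of 500 bp or less made up 47.1% of them (281 loci) and 14.8% of the others. The range was wide, from 101 to 44338 bp, and 10 loci spanned over 10000 bp. Among loci above 1 FPKM in shoots, 4.23% of the 1771 loci of 101 to 200 bp were at 0 in roots, and 5.78% of the 3561 loci of 201 to 500 bp. This share was 2.67% from 501 to 2000 bp, 0.472% from 2001 to 5000 bp and 0.274% above 5000 bp.

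**Figure D1:**
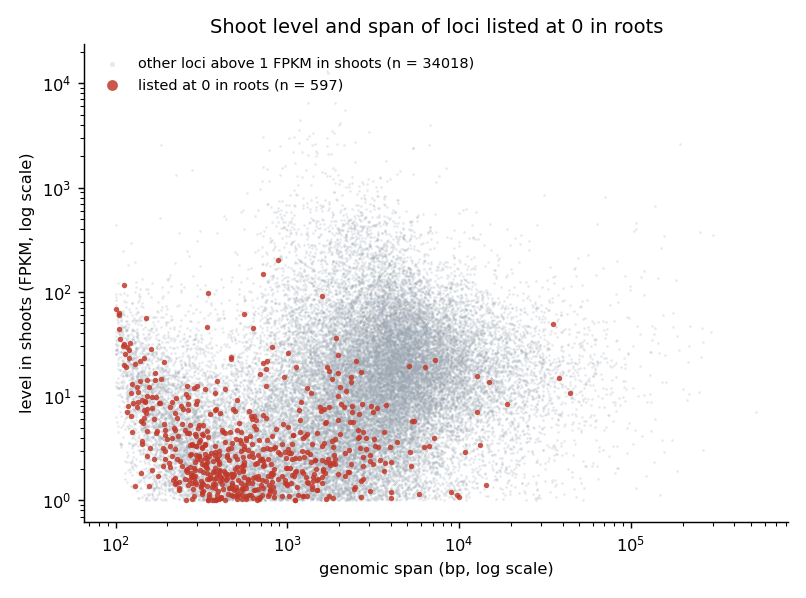
Genomic span (horizontal, bp, log scale) against the shoot level (vertical, FPKM, log scale) of each locus above 1 FPKM in shoots. The 597 loci listed at 0 in roots (red) gather at low level and short span, around medians of 2.66 FPKM and 539 bp, with a band of loci near 101 bp at higher level and a few long loci of over 10000 bp, while the 34018 other loci (grey) centre on 10.7 FPKM and 2685 bp.

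The share varied with span and level together. At 1 to 2 FPKM in shoots, 9.49% of the 990 loci of 201 to 500 bp were listed at 0 in roots, and 1.27% of the 393 loci over 5000 bp. Above 50 FPKM, 1 of 69 loci of 201 to 500 bp was at 0, and none of the 2065 loci of 2001 to 5000 bp or of the 1293 longer ones. The shortest loci differed from this order, since their share stayed between 3.38% and 5.42% at every level and was 4.42% above 50 FPKM (5 of 113 loci). FPKM of such short loci depends strongly on the fragment length assumed by the software.

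The product of shoot level and span, in FPKM times kb, bounds from above the fragments of a locus after scaling for library size, because the span includes introns. This bound had a median of 1.57 for the loci at 0 in roots, with quartiles of 0.791 and 3.96, and of 29.4 for the other loci. The share at 0 in roots was 7.36% of the 815 loci with a bound under 0.5 and 7.11% of the 2026 loci from 0.5 to 1. It was 1.29% from 5 to 10, 0.865% from 10 to 50 and 0.106% of the 14104 loci above 50. Thus 85 of the 597 loci reached 10 by this bound and 11 reached 100. With the depth unknown, it was not tested how many of the zeros a low number of fragments would give.

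**Figure D2:**
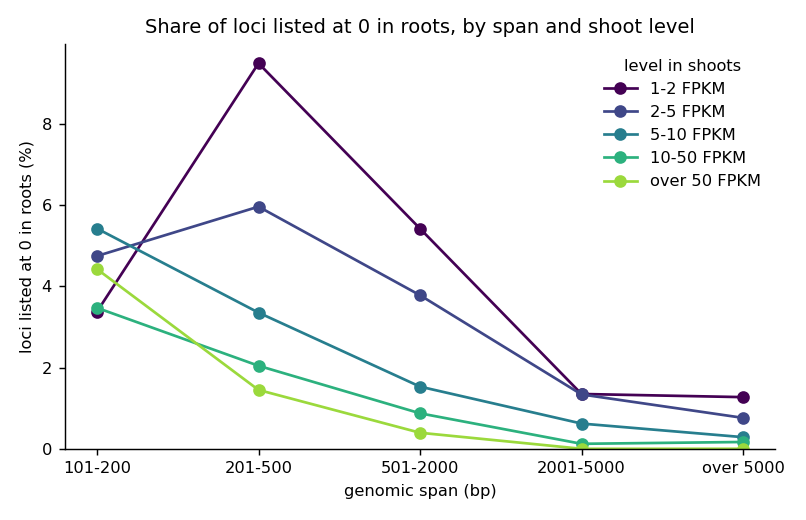
Percentage of loci listed at 0 in roots (vertical) by class of genomic span (horizontal, bp), with 1 line for each class of shoot level, among the 34615 loci above 1 FPKM in shoots. The share is highest, 9.49%, for loci of 201 to 500 bp at 1 to 2 FPKM, drops with span at each level from 201 to 500 bp up to 2001 to 5000 bp, and lies between 3.38% and 5.42% for the shortest loci at each level.

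The lowest root values above 0 lay a small step from 0. Those given here were at loci longer than the median of 539 bp of the loci at 0 in roots. FPKM is scaled by length, and the step at shorter loci was not examined. The lowest root level above 0 was 0.0045 FPKM, at a plus-strand locus of 10212 bp on chromosome 1 with 1.17 FPKM in shoots. The next was 0.0057 FPKM, at a plus-strand locus of 2764 bp on chromosome 1 with 1.16 FPKM in shoots. In all, 13 loci lay above 0 and at or under 0.01 FPKM in roots, and 565 above 0 and at or under 0.1 FPKM. Counting these 565 with the loci at 0 raised the median span from 539 to 939 bp. On the chosen side of the threshold, shoot levels began just above 1 FPKM, the limit of the table.

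The most abundant locus at 0 in roots, P_XLOC_018794, lies on the plus strand of chromosome 5 at 192613610 to 192614489. It spans 880 bp and had 201 FPKM in shoots and 0 in roots. Its nearest same-strand neighbour, 23947 bp away, had 6.05 FPKM in shoots and 8.81 in roots. The nearest locus on the opposite strand, 82775 bp away, was a root locus with 0.102 FPKM in shoots and 49.2 in roots. Neither neighbour was shoot-biased. The second, M_XLOC_000484, lies on the minus strand of chromosome 1 at 3000161 to 3000884, spans 724 bp and had 148 FPKM in shoots and 0 in roots. Its nearest neighbours were within 4-fold between the organs, at 24.9 and 15.6 FPKM in shoots and roots on the same strand, 76884 bp away, and at 27.3 and 35.8 FPKM on the other strand, 8500 bp away. The file pairs neither identifier with a gene name.

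Another 2 of the 10 most abundant loci also lay outside any other listed locus. A plus-strand locus on chromosome 3 at 4843295 to 4844890, of 1596 bp, had 91.7 FPKM in shoots and 0 in roots. No same-strand locus was listed within 132800 bp, and the opposite-strand locus 4269 bp away had 9.93 FPKM in shoots and 8.93 in roots. On chromosome 2, a minus-strand locus of 347 bp at 4193131 to 4193477 had 97.2 FPKM in shoots and 0 in roots. Its same-strand neighbour had 99.7 FPKM in shoots and 150 in roots, while the opposite-strand locus 2506 bp away had 175 and 41.3 FPKM. The latter was at least 4-fold higher in shoots with 1 FPKM added, the same direction as the locus at 0.

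A further 3 of the 10 lay inside a much longer locus of the same strand that was itself strongly shoot-biased. On chromosome 7, a minus-strand locus of 112 bp at 4373142 to 4373253 had 116 FPKM in shoots and 0 in roots. The surrounding locus of 66743 bp had 24.0 FPKM in shoots and 0.0090 in roots. On chromosome 6, a plus-strand locus of 101 bp at 48725294 to 48725394 had 69.1 FPKM in shoots, inside a locus of 18053 bp with 15.7 FPKM in shoots and 1.32 in roots. On chromosome 3, a plus-strand locus of 556 bp at 76104050 to 76104605 had 60.8 FPKM in shoots, inside a locus of 35196 bp with 139 FPKM in shoots and 2.85 in roots. In each of these 3 pairs the outer locus was far lower in roots than in shoots, and the inner one was listed at 0 there.

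The other 3 of the 10 were short loci of 105 to 150 bp outside any same-strand locus. A plus-strand locus on chromosome 9 at 69393688 to 69393792 had 62.2 FPKM in shoots and 0 in roots. A minus-strand locus on chromosome 1 at 9843959 to 9844063 had 60.1 FPKM in shoots and 0 in roots, and its nearest same-strand neighbour, 34120 bp away, went the other way, with 1.44 FPKM in shoots and 34.8 in roots. A plus-strand locus on chromosome 1 at 93983883 to 93984032 had 55.9 FPKM in shoots, and its neighbour 1169 bp away, at 2.64 FPKM in shoots, was also listed at 0 in roots. In all, 5 of the 10 most abundant loci spanned 200 bp or less.

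The 10 loci at 0 in roots that spanned over 10000 bp had 1.42 to 48.8 FPKM in shoots. Those of 14332, 13138 and 10851 bp were low, at 1.42, 3.38 and 2.90 FPKM, and the 5 longest had 8.38 to 48.8 FPKM. A minus-strand locus of 44338 bp on chromosome 7 at 91230503 to 91274840 had 10.8 FPKM in shoots and 0 in roots. It had no listed same-strand neighbour within 424952 bp. On chromosome 8, a minus-strand locus of 37926 bp at 38699709 to 38737634 had 14.9 FPKM in shoots and 0 in roots, and its same-strand neighbour had 15.4 and 16.1 FPKM. A plus-strand locus of 18940 bp on chromosome 9 at 56124744 to 56143683 had 8.38 FPKM in shoots and 0 in roots, beside a same-strand neighbour with 10.1 FPKM in shoots and 1.86 in roots. These 3 loci were above the median of 2.66 FPKM of the loci at 0 in roots, and 1 of them was below the median of 10.7 FPKM of the other loci.

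Long loci at 0 in roots also held shorter ones. On chromosome 5, a minus-strand locus of 35306 bp at 16129518 to 16164823 had 48.8 FPKM in shoots and 0 in roots. Inside it a locus of 339 bp, at 16158530 to 16158868, had 46.5 FPKM in shoots and was also listed at 0 in roots, so inner and outer locus stood at nearly the same level. The outer locus had the largest bound of the 597, at 1722 FPKM times kb in shoots. On chromosome 10, a plus-strand locus of 14953 bp at 145106393 to 145121345 had 13.6 FPKM in shoots and 0 in roots, and a locus of 698 bp inside it had 1.40 FPKM in shoots and 0 in roots. Reads of overlapping same-strand loci may have been divided between them by the authors' software, which was not tested.

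The strands held similar numbers, with 305 plus-strand loci at 0 in roots (51.1%) and 292 minus-strand ones, against a plus-strand share of 50.6% among the other loci. Each chromosome carried them, from 41 on chromosome 6 to 84 on chromosome 2. As a share of listed loci they ranged from 1.26% on chromosome 5 to 2.10% on chromosome 7. Their median shoot level by chromosome lay between 2.27 FPKM on chromosome 2 and 4.13 FPKM on chromosome 10.

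Loci at 0 in roots were more common toward the middle of the chromosomes and where loci were sparse. With each chromosome measured from its nearer end to its middle, taking the last listed locus as its far end, they were 1.13% of the 12340 loci in the outermost of 5 equal parts. They were 1.25%, 1.77% and 2.19% in the next 3 parts and 2.59% of the 4475 loci nearest the middle. The innermost share was above the outermost on 8 of 10 chromosomes. The 276 loci listed at 0 in shoots, the opposite pattern, made up 0.738% of all listed loci, 0.859% of the outermost part and 0.782% of the innermost. The other loci at least 4-fold higher in shoots made up 6.55% of the outermost part and 7.87% of the innermost. Listed loci near the middle were also shorter and lower in general, with a median span of 1949 bp against 2600 bp in the outermost part and a median shoot level of 7.05 FPKM against 9.78 FPKM. The part of span and level in this order was not tested.

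**Figure D3:**
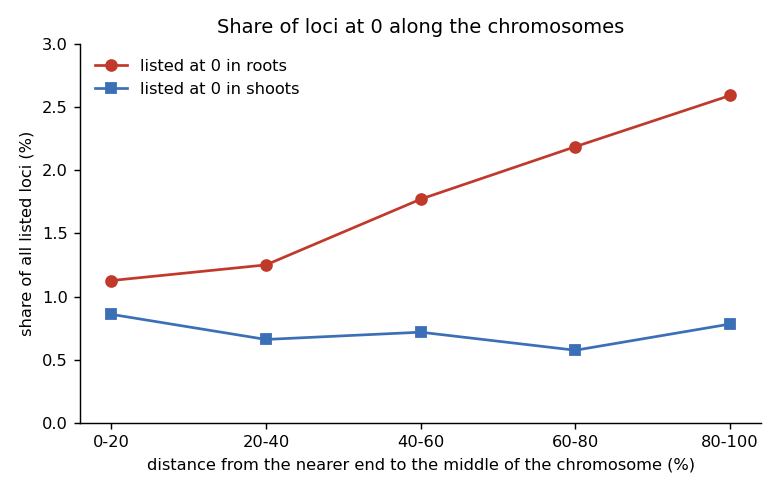
Percentage of all listed loci that are at 0 in roots (red circles) or at 0 in shoots (blue squares), in 5 classes of distance from the nearer chromosome end (0%) to the middle (100%). The share at 0 in roots goes from 1.13% to 2.59% toward the middle, while the share at 0 in shoots lies between 0.574% and 0.859%.

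Loci were also sorted into 3 classes of similar size by how many loci their 5 Mb window held. The sparse class, with at most 87 loci per window, held 297 of the 597 loci at 0 in roots. They were 2.38% of its 12486 loci, against 1.31% in the middle class and 1.09% of the 12423 loci in the dense class, with over 128 loci per window. For the other loci at least 4-fold higher in shoots these shares were 7.98% in the sparse class and 6.17% in the dense class. The sparse share of loci at 0 in roots was above the dense share on 8 of 10 chromosomes. It was also the larger in each of the 5 span classes, with 5.78% against 2.09% at 101 to 200 bp, 6.74% against 3.74% at 201 to 500 bp and 3.04% against 1.79% at 501 to 2000 bp. In the classes of 2001 to 5000 bp and over 5000 bp the shares were 0.709% against 0.296% and 0.381% against 0.198%. The splits by position and by density overlap, since windows of loci in the innermost part held at most 113 loci. Shoot level was not held equal between the density classes. Its median over all listed loci was 7.77 FPKM in the sparse class and 9.94 FPKM in the dense class.

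Spacing differed between the strands. The nearest same-strand locus was at a median of 5902 bp from a locus at 0 in roots, against 10510 bp for the other loci above 1 FPKM in shoots. The nearest opposite-strand locus was at a median of 50103 bp, against 25891 bp. Gaps were not compared within the classes of locus density, and 297 of the 597 loci lay in the sparse class. A same-strand neighbour lay within 1 kb of 198 of the 597 loci (33.2%), against 28.8% of the other loci, and an opposite-strand neighbour within 1 kb of 61 (10.2%), against 16.9%. The order of the same-strand gaps was the reverse among loci at 5 FPKM or more in shoots, with 16130 bp for those at 0 in roots and 13684 bp for the others. After same-strand loci at most 1 kb apart were joined, each group taking the levels of its most abundant locus, the medians were 32703 and 32455 bp.

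The nearest same-strand neighbours of loci at 0 in roots were often shoot-biased themselves. Their median log2 ratio of roots over shoots, computed with 1 FPKM added to both levels, was -1.10, with quartiles of -2.12 and 0.10. Neighbours of the other loci above 1 FPKM in shoots had a median of 0.05. Their median levels were 7.09 FPKM in shoots and 1.80 in roots, against 9.65 and 8.74 FPKM for the neighbours of the other loci. At least 4-fold higher in shoots, with 1 FPKM added, were 160 of the 597 neighbours (26.8%), against 7.36% of the neighbours of the other loci and 7.55% of all listed loci. At least 4-fold higher in roots were 17 (2.85%), against 3.95% of all listed loci. The nearest same-strand locus was itself at 0 in roots for 77 of the 597 (12.9%), against 1.36% for the other loci. Loci at 0 in roots that were each other's nearest locus count once each in this number. With neighbours at 0 in roots left out, the share at least 4-fold higher in shoots was 24.0%, against 6.87% for the other loci.

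The share of shoot-biased neighbours was larger for loci at 0 in roots than for other loci on 10 of 10 chromosomes, from 16.4% on chromosome 9 to 42.2% on chromosome 7. It depended on the added FPKM: with 0.1 FPKM it was 48.1%, against 12.3% for the neighbours of other loci, and with 5 FPKM it was 9.72% against 3.50%. For the 85 loci whose bound reached 10 FPKM times kb it was 16.5%, against 7.42% for other loci that reached it, a setting added after seeing the data.

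Likeness of same-strand neighbours was greatest at short distance. Where the neighbour overlapped the locus at 0 in roots (74 loci), 58.1% of the neighbours were higher in shoots by at least 4-fold and none was so in roots, and their median log2 ratio was -2.41. At gaps of up to 1 kb (124 loci) the share was 39.5%, with a median of -1.69. It was 31.9% at 1 to 5 kb, 20.3% at 5 to 20 kb, 8.50% at 20 to 100 kb and 13.6% beyond 100 kb. Neighbours that were themselves at 0 in roots are included in these shares. For the neighbours of all other loci above 1 FPKM in shoots these shares ran from 5.05% to 8.89% over the same classes.

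The 2555 other loci that were at least 4-fold higher in shoots give a closer comparison. The share of their same-strand neighbours that were shoot-biased was 19.1% in all, 42.7% where they overlapped and 33.8% at up to 1 kb. At 1 to 5 kb it was 14.1%, against 31.9% for the loci at 0 in roots, and at 5 to 20 kb it was 14.0% against 20.3%. At 20 to 100 kb the order was the reverse, with 14.0% against 8.50%. At 1 to 5 kb, 24.2% of the neighbours of loci at 0 in roots were themselves at 0 there, against 6.59% for the other shoot-biased loci. At up to 1 kb these shares were 32.3% and 7.90%. These differences were not tested, and the loci at 0 in roots are the shorter set, with a median of 539 bp against 2173 bp.

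**Figure D4:**
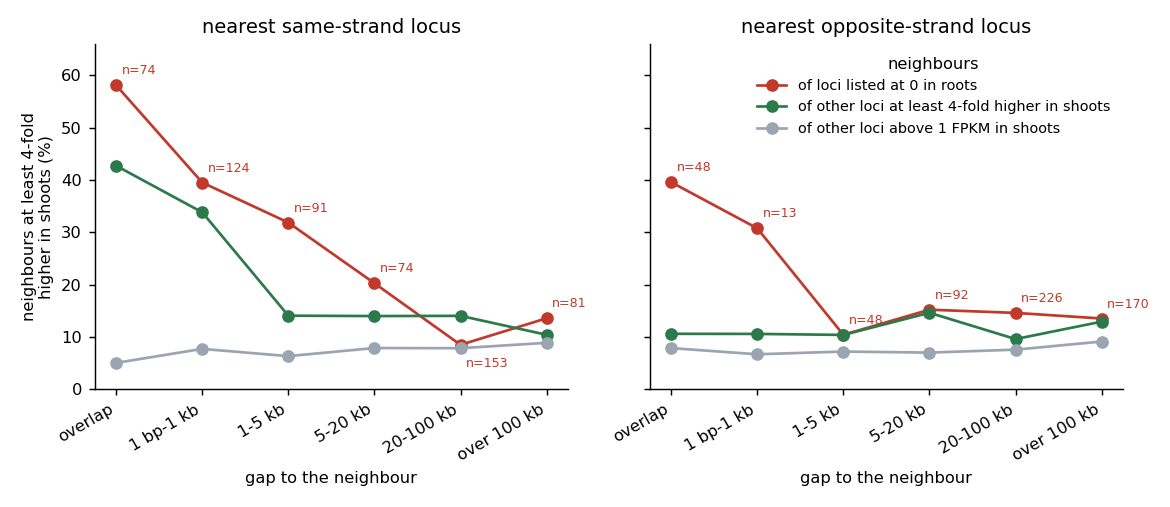
Percentage of nearest neighbours at least 4-fold higher in shoots with 1 FPKM added (vertical), by gap between locus and neighbour (horizontal), on the same strand (left) and on the opposite strand (right). Neighbours of loci listed at 0 in roots (red, with the number of loci) go from 58.1% at overlap to 8.50% at 20 to 100 kb on the same strand, and from 39.6% to 10.4% at 1 to 5 kb on the opposite strand, while neighbours of all other loci above 1 FPKM in shoots (grey) stay between 5.05% and 9.13% in both.

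On the opposite strand the median neighbour was near equal between the organs. The median log2 ratio of the nearest opposite-strand neighbours was -0.06, with quartiles of -1.20 and 0.38, against a median of 0.08 for those of other loci. Of the 597 neighbours, 98 (16.4%) were shoot-biased by at least 4-fold and 12 (2.01%) root-biased, against 7.69% and 3.56% for those of the other loci. The shoot-biased share was above that of the other loci on 10 of 10 chromosomes. Where the neighbour overlapped the locus the share was 39.6%, against 7.87% for the other loci, and at up to 1 kb it was 30.8% (4 of 13), against 6.69%. It was 10.4% at 1 to 5 kb (5 of 48), against 7.22% for the other loci, and 15.2% at 5 to 20 kb, against 7.01%. At 20 to 100 kb it was 14.6%, against 8.50% on the same strand, and beyond 100 kb it was 13.5%, against 13.6% on the same strand. The opposite-strand shares of the other loci were 7.58% at 20 to 100 kb and 9.13% beyond 100 kb. For the other loci at least 4-fold higher in shoots the opposite-strand share was 11.3% in all and 10.6% where they overlapped. It was 14.6% at 5 to 20 kb, 9.60% at 20 to 100 kb and 12.9% beyond 100 kb. For the 85 loci at 0 in roots whose bound reached 10 FPKM times kb the share was 16.5% on either strand. For other loci that reached it, the shares were 7.42% on the same strand and 7.53% on the opposite strand. The strands were not compared by a test.

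Within span classes the same-strand contrast was also seen. Of the same-strand neighbours of the 75 loci of 101 to 200 bp at 0 in roots, 38.7% were higher in shoots by at least 4-fold, against 4.78% for the 1696 other loci of that span. The pairs of shares were 29.1% and 7.54% at 201 to 500 bp, 24.1% and 8.28% at 501 to 2000 bp, and 11 of 55 loci and 7.56% at 2001 to 5000 bp. Over 5000 bp they were 12.5% (3 of 24 loci) and 6.63%. On the opposite strand the pairs were less even. They were 16% and 8.43% at 101 to 200 bp, 20.4% and 7.93% at 201 to 500 bp, and 13.1% and 7.94% at 501 to 2000 bp. For the longer classes they were 11 of 55 loci and 7.55% at 2001 to 5000 bp, and 8.33% (2 of 24 loci) and 7.41% over 5000 bp.

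Of the loci at 0 in roots, 71 (11.9%) lay wholly inside a same-strand locus, against 8.42% of the other loci (2863 of 34018). These inner loci had a median shoot level of 26.9% of that of the outer locus, a value not computed for other inner loci. The outer loci numbered 59, since some held several. Counted once for each inner locus, they had median levels of 14.5 FPKM in shoots and 1.22 in roots, and 41 of 71 (57.7%) were at least 4-fold higher in shoots, 30 were within 4-fold and none was higher in roots. For the 2863 other loci that lay inside a same-strand locus, 5.38% of the outer loci were shoot-biased. The other loci at least 4-fold higher in shoots came close to the loci at 0 in roots. Of them 95 lay inside a same-strand locus, and 50.5% of the outer loci (48 of 95) were shoot-biased. Within the classes of short span, loci at 0 in roots lay inside a same-strand locus less often than the others. The shares were 33.3% and 48.2% at 101 to 200 bp, and 17.0% and 41.5% at 201 to 500 bp.

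An opposite-strand locus overlapped 48 of the 597 loci (8.04%), against 9.33% of the other loci, by a median of 316 bp. In 31 of these, or 5.19% of the 597, the locus at 0 in roots lay wholly inside its partner, against 1.97% of the other loci (670 of 34018). These shares were not compared within span classes, and the loci at 0 in roots are the shorter set. Of the loci listed at 0 in shoots, which are also short, 6.52% lay wholly inside an opposite-strand locus. Of the 48 partners, 19 were at least 4-fold higher in shoots, none in roots, and 29 were within 4-fold. The partner had the higher shoot level in 42 of 48 pairs, and the locus at 0 stood at a median of 15.8% of it, leaving out 1 partner listed at 0 in shoots. Such pairs were not counted for other overlapped loci. Loci at 0 in roots are also the lower set in shoots, with a median of 2.66 FPKM against 10.7 FPKM. Strand separation in the libraries was not measured.

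The most abundant overlapped loci showed each of these cases. On chromosome 3, a plus-strand locus of 105 bp at 29516016 to 29516120 had 43.7 FPKM in shoots and 0 in roots, inside a minus-strand locus of 15692 bp with 6.34 and 3.96 FPKM. On chromosome 5, a plus-strand locus at 211282895 to 211283011 had 29.4 FPKM in shoots, and shared 92 bp with a minus-strand locus at 3.39 FPKM in shoots and 0.034 in roots. On chromosome 8, a minus-strand locus at 163426160 to 163426329 had 16.5 FPKM in shoots, inside a plus-strand locus with 22.0 FPKM in shoots and 27.0 in roots. Here the inner locus was listed at 0 in the organ where the outer one was the higher.

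The remaining pairs likewise held partners of either kind. A minus-strand locus of 2361 bp on chromosome 8 at 75990434 to 75992794 had 15.3 FPKM in shoots and 0 in roots. It overlapped by 132 bp a plus-strand locus that was nearly equal in the organs, at 37.8 FPKM in shoots and 36.2 in roots. On chromosome 1, a plus-strand locus of 153 bp at 35740095 to 35740247 had 14.2 FPKM in shoots, inside a minus-strand locus with 705 FPKM in shoots and 13.3 in roots. Its level was 2.01% of that of the locus around it.

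Some of the loci at 0 in roots had another such locus nearby. Within 100 kb of each other on either strand, 149 of the 597 formed 64 clusters, of which 52 held 2 loci, 6 held 3, 3 held 4 and 3 held 5. In 51 of the 64 clusters the loci shared a strand, and in 34 no other listed locus overlapped the stretch from the first to the last. The median cluster was 5016 bp long. In order along a strand, 117 of the loci formed 52 unbroken series of 2 to 5 with no other listed same-strand locus starting between them. The number of clusters depended on the level and on joining: there were 6 among loci at 5 FPKM or more in shoots, and 31 after same-strand loci at most 1 kb apart were joined. Clusters and series were not counted for other sets of loci. Whether these numbers exceed those of listed loci in general is therefore unknown.

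The 3 largest clusters had 5 loci each. On chromosome 7, between 68592999 and 68661056, 5 minus-strand loci and no others were listed. They had 1.31, 1.32, 16.8, 3.76 and 8.82 FPKM in shoots in order of position and 0 in roots, with spans of 721, 377, 1966, 309 and 148 bp. The first 3 lay within 5 kb, and the last 2 lay next to each other farther along. The locus of 1966 bp stood highest.

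On chromosome 10, between 113752113 and 113758908, 5 minus-strand loci of 180 to 1002 bp lay in 6796 bp, inside a single minus-strand locus of 20590 bp. They had 1.11, 1.58, 8.59, 1.41 and 1.23 FPKM in shoots and 0 in roots. The outer locus had 15.9 FPKM in shoots and 5.29 in roots, and its log2 ratio with 1 FPKM added was -1.42. It was thus present in roots, where each of the inner loci was listed at 0.

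The third cluster, on chromosome 7 between 101842041 and 101991311, held 4 plus-strand loci and 1 minus-strand locus among 9 listed loci. The first plus-strand locus, of 257 bp, had 10.5 FPKM in shoots and lay inside a locus with 33.3 FPKM in shoots and 0.078 in roots. The next 3 had 2.80, 1.71 and 4.55 FPKM in shoots and lay inside a locus of 17070 bp with 5.66 FPKM in shoots and 0.139 in roots, and the minus-strand locus had 2.24 FPKM in shoots. Another inner locus there had 1.26 FPKM in shoots and 0.077 in roots. Between these groups a plus-strand locus of 1708 bp was transcribed in both organs, at 13.1 FPKM in shoots and 17.1 in roots.

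Another series, singled out after its values were seen, lay on the minus strand of chromosome 2 between 128370859 and 128373257. Its 4 loci of 221 to 358 bp had 1.43, 1.41, 2.83 and 2.03 FPKM in shoots and 0 in roots. They lay inside a locus of 9483 bp with 7.76 FPKM in shoots and 0.261 in roots. Another 3 loci inside it had 1.13, 3.14 and 1.67 FPKM in shoots and 0.034, 0.336 and 0.321 FPKM in roots. Neighbouring loci of similar shoot level thus fell on both sides of the threshold that chose the loci.

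**Figure D5:**
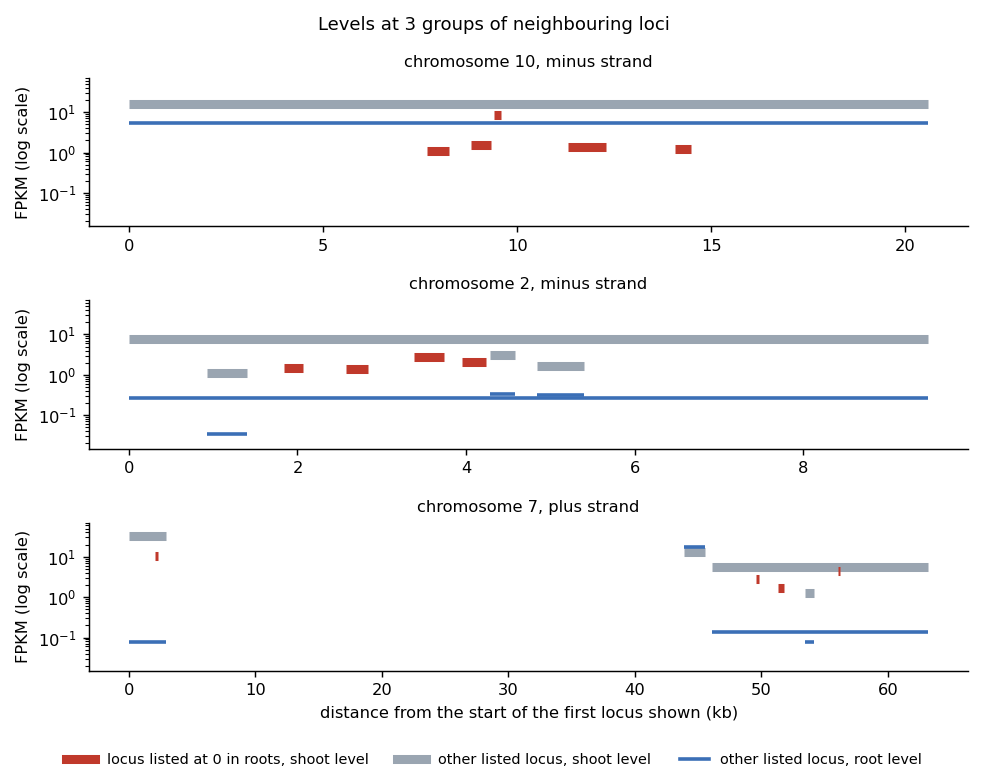
Levels (vertical, FPKM, log scale) at listed loci drawn to scale along 3 stretches (horizontal, kb from the start of the first locus shown). Red bars are shoot levels of loci listed at 0 in roots, and grey bars and blue lines are shoot and root levels of other listed loci of the same strand that overlap the stretch (on chromosome 2, with 2 kb on either side). The short red loci lie inside longer ones, at 15.9 FPKM in shoots on chromosome 10, 7.76 FPKM on chromosome 2, and 33.3 and 5.66 FPKM on chromosome 7.

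Loci listed at 0 in shoots shared several of these features with the organs exchanged. There were 276 of them, less numerous than the 597 at 0 in roots, with a median of 2.56 FPKM in roots and a median span of 342 bp. Of their nearest same-strand neighbours, 21.7% were at least 4-fold higher in roots, against 3.95% of all listed loci, and 4.71% in shoots. Of the neighbours, 2.90% were at 0 in shoots, while for the loci at 0 in roots 12.9% of the neighbours were at 0 in roots. Among all listed loci these shares differed as well, with 0.738% at 0 in shoots and 1.60% at 0 in roots. For the loci at 0 in shoots the nearest opposite-strand locus was at a median of 28980 bp, against 50103 bp for the loci at 0 in roots. None of these differences was tested.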

How the data were processed

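Shoots and roots, told apart by their tissue label, had 1 library each. The authors deposited FPKM values with coordinates of B73 RefGen_v2, per the file header. Submitters' processing notes name TopHat, Cufflinks and Cuffdiff, with no version or setting. None of the identifiers matched the 49888 genes of the RefSeq table at hand, whose assembly differs. Depth is unknown, so no counting interval is given. A 0 may be absence or a failed estimate, which the table does not tell apart.

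The nearest neighbour was the locus with the smallest gap, 0 for overlap. Ratios were log2((roots FPKM + 1)/(shoots FPKM + 1)), and calls needed a 4-fold difference and 1 FPKM in the higher organ. Clusters joined loci at 0 in roots at most 100 kb apart. Named by rule were the 10 most abundant and 5 longest of these loci, the 3 largest clusters, and the 5 most abundant overlapped on the opposite strand or within 1 kb of a same-strand locus. The loci, lists and rules were chosen with earlier results of these data known; classes of span, level, bound, gap and position are descriptive. Geometry functions were tested on simulated loci. Python 3.11.15, pandas 2.3.3, NumPy 2.4.6 and SciPy 1.17.1 were used.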

Additional observations from a re-analysis of the deposited data

How the results depend on the processing

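Of 59 values under other settings, 37 stayed close to those reported and 22 moved, and no direction was reversed in the neighbour comparison: in 24 of 24 settings the share of shoot-biased neighbours was larger for loci at 0 in roots than for other loci. Close means within 1.5 times for a count and within the 95% binomial interval for a share or a median, which takes loci as independent. Counting loci at or under 0.1 FPKM in roots gave 1162 loci, 169 clusters and a median span of 939 bp. At 5 FPKM or more in shoots there were 163 loci and 6 clusters, with medians of 9.81 FPKM, 390 bp of span and 16130 bp to the nearest same-strand locus. Without spans under 200 bp the medians were 2.43 FPKM and 623 bp. Joining same-strand loci at most 1 kb apart gave 31 clusters, a median span of 818 bp, a same-strand gap of 32703 bp and 18.8% shoot-biased same-strand neighbours. Each joined group took the levels of its locus with the largest sum of shoot and root FPKM. A group at 0 in roots may thus hold a lesser locus above 0 there. The same-strand and opposite-strand shares were 48.1% and 24.0% with 0.1 FPKM added, 9.72% and 7.87% with 5 FPKM added, and 41.9% and 25.7% for neighbours within 5 kb. The same-strand share was 37.0% for neighbours at 5 FPKM or more in an organ, against 9.50% for other loci. It was 16.5% for loci with a bound of at least 10 FPKM times kb, against 7.42%, a setting chosen after seeing the data. Most of these shifts are set by the threshold or by which loci are kept. No paired analysis was possible because the study has 1 library per organ, and leaving out a library would leave nothing to compare. With the depth unknown, no detection limit stands behind a 0.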
